A study of Homo sapiens with 8 samples.

Results

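The frizzled genes FZD1 to FZD10 encode the cell surface receptors for WNT proteins, and their transcripts were compared between large and small human embryonic stem cells. Every probe set annotated to 1 of these genes alone was taken, which gave 18 of the 54675 probe sets in the deposited value table and covered 9 of the 10 genes (of 19775 gene symbols with a probe set of their own). FZD8 was not analysed here, because its 3 probe sets also carry the symbol of a microRNA gene. H1, the cell line used, is an established line of human embryonic stem cells, and it was kept on gelatin over irradiated mouse embryonic fibroblasts as feeders. A flow cytometer separated them by forward and side scatter, which vary with cell size and granularity, and each of 4 large and 4 small sorts was hybridised to its own Affymetrix U133 Plus 2.0 array. Both groups are the same untreated line in the same culture conditions, so scatter is the only labelled difference, and any feeder cells carried along would be mouse cells. The sorts are described as independent biological repeats with no statement of whether they came from separate cultures, so p-values measure the spread between these sorts.

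Frizzled proteins span the membrane several times and hold an extracellular cysteine-rich domain that binds WNT. With the co-receptors LRP5 or LRP6 they recruit dishevelled, which stops the destruction complex from degrading beta-catenin, so that beta-catenin can act with TCF factors in the nucleus. Some frizzleds also serve planar cell polarity, the branch that orients cells within a sheet without beta-catenin. In human embryonic stem cells FZD7 is known as an abundant frizzled and is used as a surface marker of the undifferentiated state.

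Deposited intensities were brighter on some arrays than on others, with 75th percentiles from 42.0 to 106 units, and all values below are log2 intensities after quantile normalization unless said otherwise. Equal amounts of labelled RNA went onto each array, so the values are shares of the RNA and not amounts per cell, and fewer cells of a type and less RNA per cell cannot be told apart. The 3 prime to 5 prime log2 difference of the ACTB and GAPDH control probe sets, a sign of RNA quality, was 2.91 on large array 1 and 1.83 to 1.89 on large arrays 2 to 4, against 1.94 to 2.66 on the small arrays. Large array 1 therefore stood apart from its group, and its mean correlation with the other large arrays over all non-control probe sets was 0.913, below the 0.923 to 0.929 of those 3 arrays. Of 10 pluripotency markers 8 were tested, and POU5F1 and TDGF1 had no probe set of their own. At an adjusted p under 0.05, 0 of the 8 were called, where 1.75% of all tested genes were. A negative difference was found for 7 of the 8 (median -0.08, beside 0.05 over all genes), 0 of them with an unadjusted p under 0.05. The summed intensity of the 8 overlapped (16686 to 18914 in small and 17740 to 20246 in large cells). Of 10 neural markers 9 were tested, all 9 had a positive difference, 5 had an unadjusted p under 0.05 and 0 passed adjustment. Over all 14726 genes tested, 55.9% had a positive difference and 8.2% were higher at an unadjusted p under 0.05. The summed intensity of the 9 neural markers was 1373 to 1473 in small and 1101 to 1219 in large cells, without overlap. The brightest of them were OTX2 (means 9.33 in small and 9.02 in large cells) and NES (8.77 and 8.56), which weigh most in the sum. The largest differences were in PAX6, STMN2 and LHX2. These are dim, with means of 4.59, 3.93 and 3.73 over the 8 arrays, and add little to it. Of the other marker lists, KDR alone was called (lower), among 6 tested primitive streak and mesoderm markers, and 0 were called of 5 endoderm, 4 trophoblast and 8 fibroblast markers. All 5 endoderm markers had a positive difference (median 0.68, beside 0.47 for the neural list), 0 of them with an unadjusted p under 0.05. Among the fibroblast markers, of which 3 had a positive difference, VIM was at 10.36 to 10.97 on small and 8.41 to 10.32 on large arrays (1.12 ± 0.30 SE, adjusted p = 0.0802); it is named after its values were seen. The part that RNA quality or these markers have in the frizzled differences was not tested beyond the values given below.

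The frizzled receptors FZD7 and FZD5 were called lower in small cells, and none of the tested frizzleds was called higher. For both genes the other tested probe set did not pass. Both calls were lost on the deposited scaling, with median centring or without a variance trend. Under each of these settings 0.00916% of all tested probe sets were called. Each call was kept in 2 of 8 fits with an array left out. In those 8 fits 0.15% to 2.41% of all tested probe sets were called. Of the 18 probe sets, 14 from 8 genes exceeded the brightness filter (a mean over all 8 arrays above 3.62) and were tested. Among these 14, 2 were lower and 0 higher at an adjusted p under 0.05, where 1.5% of all 32768 tested probe sets were called, 1.31% lower and 0.192% higher. At an unadjusted p under 0.05 there were 8, all 8 lower, against 8.58% of all tested probe sets that were lower at that level. The 4 small values all lay below the 4 large values for 4 of the 14 probe sets and never all above, against 5.48% of all tested probe sets with small below large and 3.87% with small above large. A negative difference was found for 13 of 14, against 47.7% of all tested probe sets. The median difference (small minus large, log2) was -0.75, beside 0.02 over all tested probe sets. Some genes have several of the 14 probe sets, and 7 of the 8 genes had only negative differences. The members were proposed with earlier results for FZD7 known, so these counts describe the family and are not independent evidence.

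**Figure D1:**
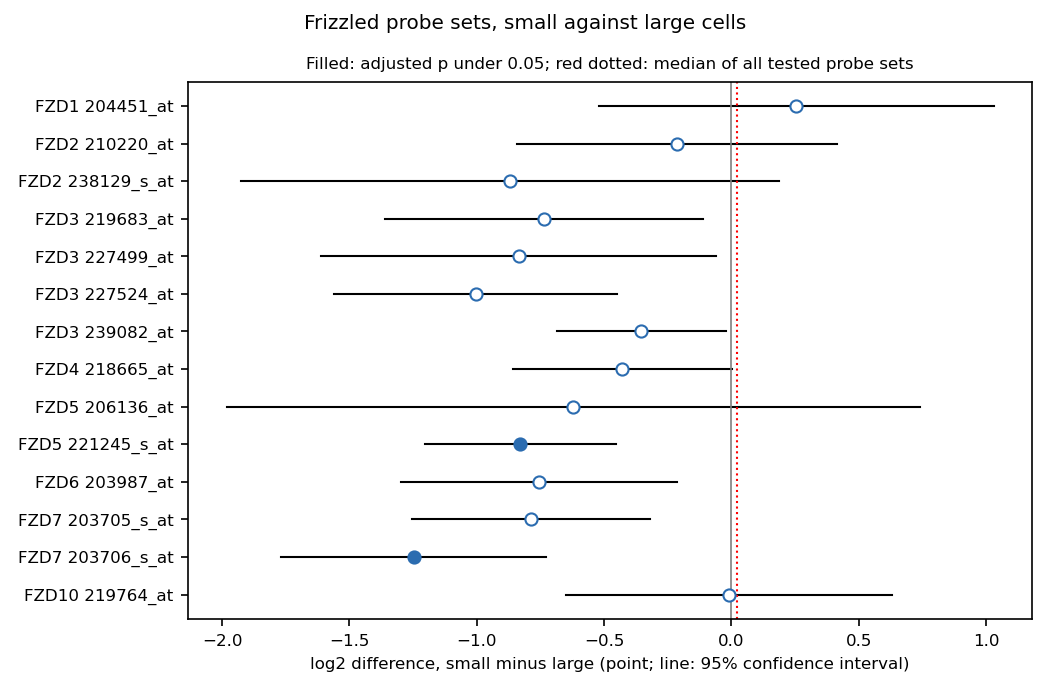
Log2 difference, small minus large, of the 14 tested frizzled probe sets (points) with 95% confidence intervals (lines). Filled points mark the 2 probe sets called at an adjusted p under 0.05, and the red dotted line is the median of all tested probe sets, 0.02; 13 of 14 points lie left of 0.

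FZD7, the frizzled known as a marker of undifferentiated stem cells, showed the largest difference of the family. Its probe set 203706_s_at was at 9.92, 10.64, 10.48 and 10.70 on large arrays 1 to 4. On small arrays 1 to 4 it was at 8.66, 9.36, 8.87 and 9.86. All 4 small values were below all 4 large ones, with small array 4 close to large array 1. This is 2.37-fold lower in small cells (-1.25 ± 0.24 SE, n = 4 per group, limma adjusted p = 0.0267). The other FZD7 probe set, 203705_s_at, was at 9.73, 10.04, 9.46 and 10.07 on large arrays 1 to 4. Its small values were 8.71, 9.12, 8.65 and 9.67. Here small array 4 lay above large array 3, and the difference of -0.79 ± 0.22 SE did not pass (adjusted p = 0.0975). On the deposited linear scale, which keeps the arrays' unequal brightness, 203706_s_at ran from 590 to 2171 units in large and from 390 to 836 in small cells, so the groups overlapped there.

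Leaving out 1 array at a time moved the difference of 203706_s_at between -1.47 and -1.07, and FZD7 kept its call in 2 of these 8 fits. Those were the fits lacking large array 1, at -1.41 with an adjusted p of 0.0129, and lacking small array 4, at -1.47 with an adjusted p of 0.0103. Without large array 1, the control probe sets' 3 prime to 5 prime difference was 1.83 to 1.89 on large and 1.94 to 2.66 on small arrays. Group and RNA quality thus differed together in that fit. The call was lost when large array 2, 3 or 4 was dropped, with adjusted p of 0.0816, 0.0762 and 0.0923, and when small array 1, 2 or 3 was dropped, with adjusted p of 0.0895, 0.0697 and 0.0531. With RNA quality (the control probe sets' 3 prime to 5 prime value) as a covariate it was -1.09 (adjusted p = 0.0456), while on the deposited scaling it was -1.24 ± 0.44 SE (adjusted p = 0.834) with median centring -1.09 ± 0.27 SE (adjusted p = 0.167) and without a variance trend -1.25 ± 0.30 SE (adjusted p = 0.148). Probe set 203705_s_at passed when small array 4 was dropped (-0.996, adjusted p = 0.0285).

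FZD5, a receptor of the same family known for its part in development of the eye and of the yolk sac, was lower on 1 of its 2 tested probe sets. Probe set 221245_s_at was at 9.70, 10.13, 9.97 and 10.17 on large arrays 1 to 4. The small arrays 1 to 4 gave 8.70, 9.44, 9.36 and 9.16. The groups did not overlap, and small array 1 was the lowest of the 8. This is 1.78-fold lower in small cells (-0.83 ± 0.17 SE, n = 4 per group, adjusted p = 0.0341). The other probe set, 206136_at, was dim and scattered, with 2.51, 5.48, 4.76 and 4.13 on large and 2.81, 4.33, 4.42 and 2.83 on small arrays. Its lowest value was on large array 1, so the spread within the large group exceeded the difference of -0.62 ± 0.63 SE (adjusted p = 0.696).

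The call for 221245_s_at was kept when large array 1 was dropped, at -0.92 with an adjusted p of 0.0214. In that fit group and RNA quality differed together, as said for FZD7. The call was also kept when small array 3 was dropped, at -0.90 with an adjusted p of 0.0408. Dropping large array 2, 3 or 4 ended it, with adjusted p of 0.102, 0.0911 and 0.118, as did dropping small array 1, 2 or 4, with adjusted p of 0.102, 0.0624 and 0.0674, over differences from -0.91 to -0.67. With RNA quality as a covariate it was -0.74 (adjusted p = 0.0647), and with 75th percentile scaling -0.70 (adjusted p = 0.0884). The call was also lost on the deposited scaling (-0.84 ± 0.45 SE, adjusted p = 0.9999), with median centring (-0.70 ± 0.27 SE, adjusted p = 0.335) and without a variance trend (-0.83 ± 0.22 SE, adjusted p = 0.164).

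**Figure D2:**
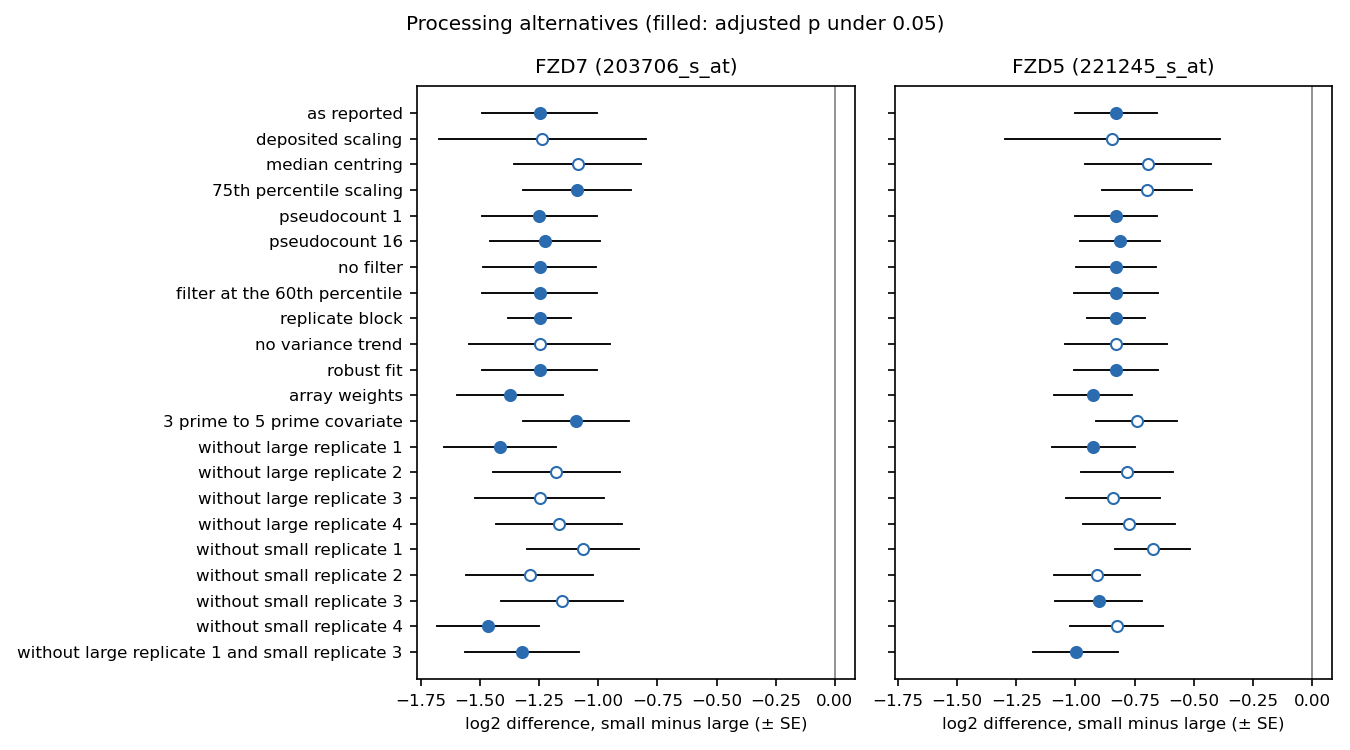
Log2 difference, small minus large (points), with 1 standard error to each side (lines), for FZD7 (203706_s_at, left) and FZD5 (221245_s_at, right) as reported and under each processing alternative or with arrays left out. Filled points have an adjusted p under 0.05; all points are below 0, from -1.47 to -1.07 for FZD7 and from -0.999 to -0.67 for FZD5.

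The sequences before the transcription start were set side by side for the frizzled genes with a RefSeq window (GRCh38.p14) that were also tested, to show the DNA upstream of a gene that was lower (FZD5), of a gene with a smaller difference that did not pass (FZD4) and of the gene with a positive difference (FZD1). RefSeq windows were matched for 5 of the 10 genes (FZD1, FZD4, FZD5, FZD8 and FZD9), and FZD2, FZD3, FZD6, FZD7 and FZD10 were not among them. Each is the 250 bases before the annotated start, written 5′ to 3′ on the gene's strand, with the GC box GGGCGG or its reverse complement CCGCCC in capitals and overlapping matches merged.
FZD5, chr2:207769907-207770156, minus strand: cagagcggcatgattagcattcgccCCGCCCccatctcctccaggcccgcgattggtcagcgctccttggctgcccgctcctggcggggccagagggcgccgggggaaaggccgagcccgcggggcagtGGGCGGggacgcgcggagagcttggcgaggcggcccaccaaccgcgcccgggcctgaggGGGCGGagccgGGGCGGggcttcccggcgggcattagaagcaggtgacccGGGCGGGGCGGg
FZD4, chr11:86955396-86955645, minus strand: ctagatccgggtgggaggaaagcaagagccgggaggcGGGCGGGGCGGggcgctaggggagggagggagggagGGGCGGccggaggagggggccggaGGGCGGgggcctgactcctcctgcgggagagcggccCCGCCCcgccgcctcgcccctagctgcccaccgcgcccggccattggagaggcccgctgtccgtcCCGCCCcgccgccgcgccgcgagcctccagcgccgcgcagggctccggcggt
FZD1, chr7:91264183-91264432, plus strand: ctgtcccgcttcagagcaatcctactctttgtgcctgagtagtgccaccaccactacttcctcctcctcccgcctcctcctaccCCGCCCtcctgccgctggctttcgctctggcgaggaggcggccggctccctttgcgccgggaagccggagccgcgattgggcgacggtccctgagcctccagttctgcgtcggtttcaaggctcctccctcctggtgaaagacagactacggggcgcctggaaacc

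These upstream windows were rich in G and C. FZD5 held 6 GC boxes at 76.8% GC, FZD4 held 6 at 80.8% and FZD1 held 1 at 65.2%. The median over 35116 windows of the same length was 58.0% GC, and 42.6% of them held at least 1 GC box on either strand. The TCF motif CTTTGA, searched on both strands, was in none of the 5 frizzled windows and in 11.2% of all windows. These letter matches describe the DNA and bear on no factor's binding.

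FZD3 and FZD6, receptors best known from planar cell polarity, had differences in the same direction as FZD7 and FZD5, and none passed the test. FZD3 has 4 tested probe sets with differences from -1.004 to -0.35, of which 227524_at had the smallest p. It was at 7.56, 6.95, 7.01 and 6.96 on large arrays 1 to 4. Its small values were 6.63, 5.68, 6.48 and 5.66, all below the large ones. The difference was -1.004 ± 0.26 SE (adjusted p = 0.0756), and with RNA quality as a covariate it passed (-1.17, adjusted p = 0.0421). FZD3 probe sets 219683_at (-0.74 ± 0.29 SE, adjusted p = 0.243) and 227499_at (-0.83 ± 0.36 SE, adjusted p = 0.289) shared another pattern, with large arrays 3 and 4 at 7.12 to 7.89 and large arrays 1 and 2 at 6.10 to 6.61, within or near the range of the small arrays (5.39 to 6.69). The FZD3 probe set 239082_at differed by -0.35 ± 0.15 SE (adjusted p = 0.295), with large values from 8.001 to 8.39 and small values from 7.67 to 8.01.

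FZD6 was measured by 1 probe set, at 6.42, 6.38, 7.12 and 7.19 on large arrays 1 to 4. Small arrays 1 to 4 gave 6.25, 5.70, 6.37 and 5.76. Small array 3 lay just below large array 2, and the groups did not overlap. The difference of -0.76 ± 0.25 SE did not pass (adjusted p = 0.162). As for the FZD3 probe sets 219683_at and 227499_at, large arrays 3 and 4 were the highest of the 8 for FZD6.

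**Figure D3:**
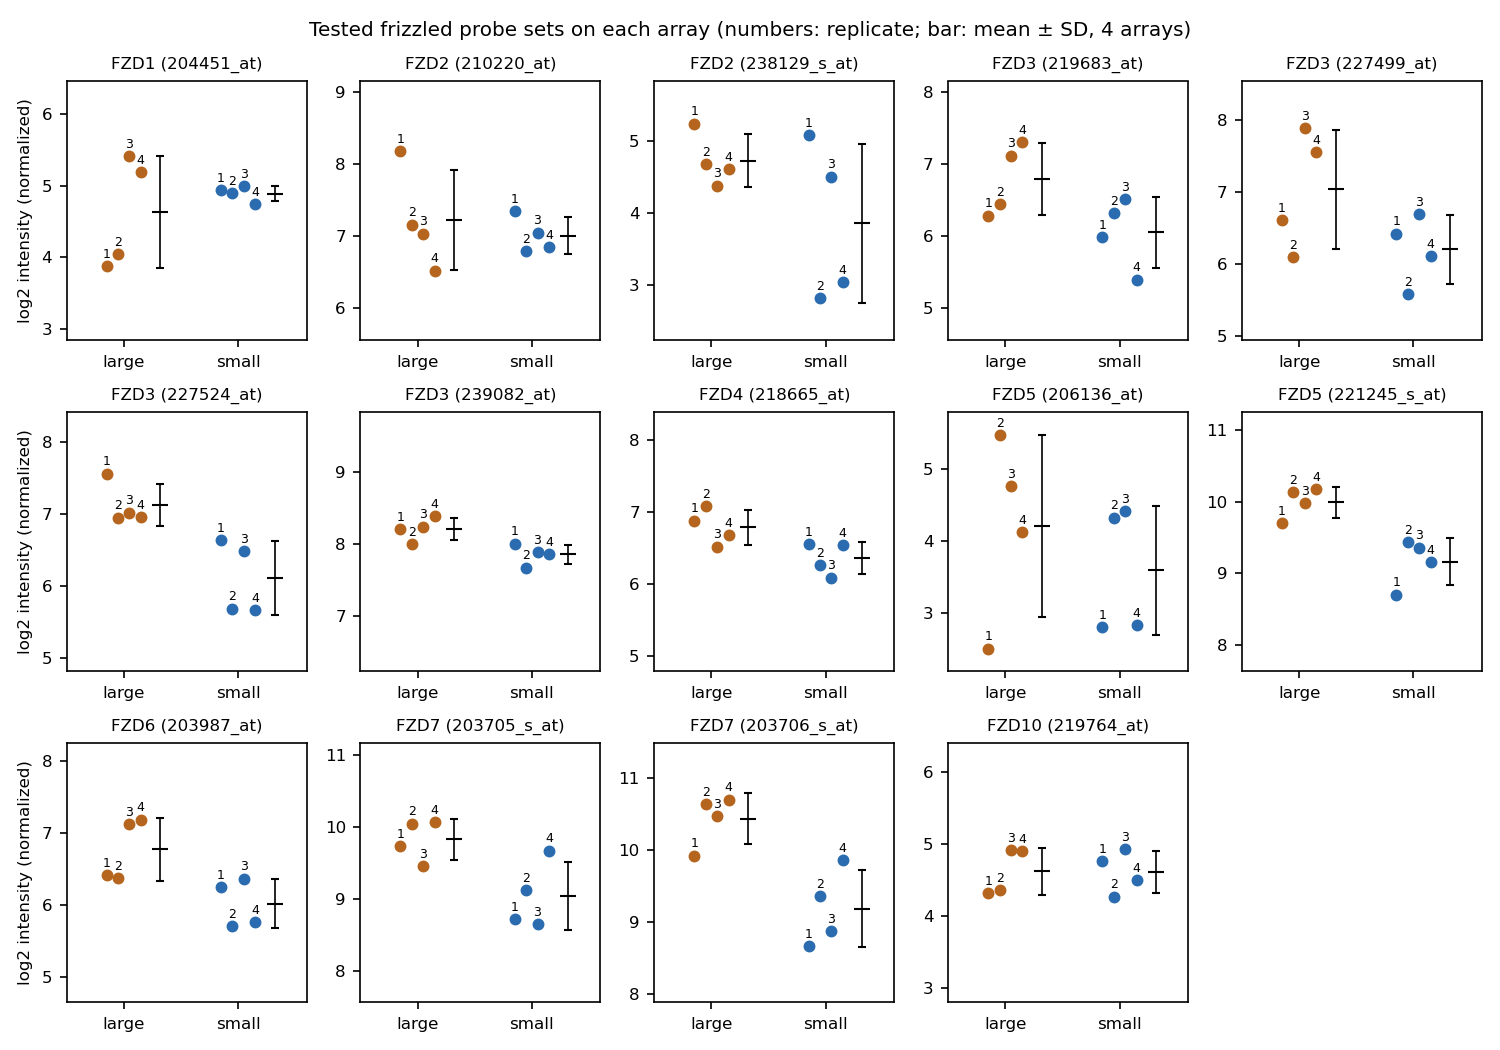
Normalized log2 intensity of the 14 tested frizzled probe sets on each of the 4 large (brown) and 4 small (blue) arrays; numbers are replicate numbers, black bars are the mean ± SD, and every panel spans the same height on the log2 scale. Groups do not overlap for FZD7 203706_s_at, FZD5 221245_s_at, FZD6 203987_at and FZD3 227524_at, and large array 1 is the lowest or highest large value in several panels.

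FZD4, the receptor for norrin in retinal blood vessels, differed by -0.43 ± 0.20 SE (218665_at, adjusted p = 0.332). It was at 6.89, 7.08, 6.52 and 6.68 on large and 6.56, 6.27, 6.09 and 6.54 on small arrays 1 to 4. Small arrays 1 and 4 were slightly above large array 3, so the groups overlapped. FZD2, FZD1 and FZD7 form the most closely related branch of the family, and FZD2 and FZD1 did not pass. FZD2 probe set 210220_at was at 8.18 on large array 1 and between 6.52 and 7.16 on the other large arrays, against 6.79 to 7.35 on the small arrays. Its difference of -0.21 ± 0.29 SE (adjusted p = 0.779; 95% interval -0.84 to 0.41) turned to 0.10 without large array 1. FZD2 probe set 238129_s_at was at 4.38 to 5.25 on large arrays, and on small arrays 2 and 4 it was at 2.82 and 3.04, with 5.08 and 4.51 on small arrays 1 and 3. Its difference was -0.87 ± 0.49 SE (adjusted p = 0.427).

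FZD1 was the family's only tested gene with a positive difference, 0.26 ± 0.36 SE (204451_at, adjusted p = 0.788; 95% interval -0.52 to 1.03). The small arrays lay close together, from 4.74 to 4.99, and the large arrays spread from 3.88 to 5.41, with large arrays 1 and 2 low and 3 and 4 high. Its sign turned with array weights (-0.0071) and without large array 1 and small array 3 (-0.03). FZD10 had 4.31, 4.36, 4.91 and 4.90 on large and 4.76, 4.27, 4.92 and 4.49 on small arrays 1 to 4, spread alike in both groups. Its difference was -0.0082 ± 0.30 SE (adjusted p = 0.993; 95% interval -0.65 to 0.63), a range that holds changes of either sign.

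The remaining 4 probe sets were too dim to be tested. FZD9, known from nerve and bone tissue, has 1 probe set and was not tested at all, with 3.74, 3.83, 3.23 and 4.42 on large and 3.27, 2.40, 2.996 and 3.30 on small arrays. Small arrays 1 and 4 were above large array 3. The FZD1 probe sets 204452_s_at and 236035_at ranged from 1.46 to 3.62 over the 8 arrays, and the FZD4 probe set 224337_s_at from 1.61 to 3.15. The table holds no detection call, so it is not known which of these exceed background.

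The genes whose levels over the 8 arrays were most like FZD7 203706_s_at, by Pearson's correlation among 14726 genes represented by their brightest tested probe set, were VCAN, ESYT1, SPTBN1, PCDH18 and DBN1. VCAN encodes the matrix proteoglycan versican, ESYT1 a tether between endoplasmic reticulum and plasma membrane, SPTBN1 a spectrin of the membrane skeleton, PCDH18 a protocadherin and DBN1 the actin-binding drebrin. Their r was 0.990, 0.990, 0.984, 0.984 and 0.982, with Spearman's rho of 0.905 for VCAN and 0.976 for each of the others (n = 8 arrays). These are descriptions, since the points are 2 groups of arrays that share normalization and array quality. The differences between small and large cells were -1.19 ± 0.22 SE for VCAN, -1.27 ± 0.27 SE for ESYT1, -1.34 ± 0.22 SE for SPTBN1 and -0.99 ± 0.19 SE for PCDH18, which were called lower. DBN1 differed by -0.57 ± 0.17 SE and did not pass (adjusted p = 0.116). Genes picked for likeness to a probe set that was itself called lower will be lower too, so these differences are not separate evidence.

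The other genes of the pathway were taken from 8 lists by role, each gene represented by its brightest tested probe set, with p-values adjusted over 14726 genes, of which 1.75% were called, 1.52% lower and 0.224% higher. Of the 10 tested WNT ligands of 19 listed, 0 were called, 2 had a negative difference and the median was 0.14, beside 0.05 over all genes. WNT5A, a ligand of the beta-catenin-independent branch, was at 5.31 to 5.56 on small and 5.61 to 6.42 on large arrays, and it differed by -0.57 ± 0.23 SE (adjusted p = 0.238). WNT16 had a difference of 1.07 ± 0.41 SE (adjusted p = 0.218). It was dim, at 4.30 to 5.31 on small and 3.07 to 4.55 on large arrays, so the groups overlapped. With the brightness filter at the 60th percentile 2 ligands were tested, so most of the 10 are dim. Neither WLS, which escorts WNT proteins to the surface (-0.40 ± 0.32 SE), nor NOTUM, which inactivates them (0.44 ± 0.50 SE), passed. Of the 3 tested WLS probe sets 2 were positive, up to 0.68, and 0 were called.

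Proteins that stand beside frizzleds at the cell surface included called members, though all 3 of those calls were lost on the deposited scaling, with median centring or without a variance trend. Of 13 tested co-receptors and partners, 3 were lower and 0 higher, with a median of -0.32. The co-receptor LRP6 was at 9.14, 9.17, 9.66 and 9.62 on large arrays 1 to 4. On small arrays 1 to 4 it was at 8.35, 8.23, 8.49 and 8.47, a narrow range far below every large value. This is 2.02-fold lower in small cells (-1.01 ± 0.16 SE, adjusted p = 0.00887), with all 3 tested LRP6 probe sets negative. The glypicans, proteoglycans on the outer membrane face that can bind WNT, were lower for GPC4 (-0.93 ± 0.17 SE, adjusted p = 0.0159, both tested probe sets) and for GPC3 (-0.97 ± 0.21 SE, adjusted p = 0.0369), whose other probe set differed by 0.05. LRP5 was below the brightness filter and was not tested.

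Among the secreted relatives that carry a frizzled-like cysteine-rich domain, with smoothened, the hedgehog pathway's member of the receptor class, 1 of 6 was lower and 0 higher. SFRP2, which binds WNT outside the cell, was at 10.13, 10.15, 10.08 and 10.25 on large and 9.13, 9.38, 9.19 and 9.64 on small arrays 1 to 4. The groups were well apart (-0.82 ± 0.14 SE, adjusted p = 0.0113), and the call was lost under the same 3 settings. The other tested SFRP2 probe set differed by -0.60 and was not called. Of 8 tested genes for frizzled turnover, 0 were called. LGR4, a receptor for the R-spondins that protect frizzleds from degradation, differed by -0.65 ± 0.20 SE (adjusted p = 0.118), and TMEM67 by -0.76 ± 0.28 SE (adjusted p = 0.198).

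Inside the cell no listed gene was called by its brightest probe set, where 1.75% of all tested genes were called. Of 12 tested genes of dishevelled and the destruction complex 0 passed and 0 had an unadjusted p under 0.05, with a median of 0.04. APC, a scaffold of that complex, was at -0.43 ± 0.21 SE, the kinase CSNK1A1 at -0.18 ± 0.10 SE and beta-catenin, CTNNB1, at -0.31 ± 0.20 SE (adjusted p = 0.333, 0.436 and 0.474). Of 10 tested TCF factors and partners, 0 passed and 0 had an unadjusted p under 0.05, with a median of -0.12. TCF7L1, the main TCF repressor in stem cells, was at -0.23 ± 0.25 SE (adjusted p = 0.708), LEF1 at 0.16 ± 0.25 SE, TLE2 at 0.31 ± 0.20 SE and BCL9 at -0.26 ± 0.22 SE. The difference in calls between surface and intracellular lists was not tested.

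Of 11 tested planar cell polarity genes, 2 were lower and 0 higher, with a median of -0.13. Both are atypical cadherins that bridge neighbouring cells, CELSR2 (-0.96 ± 0.22 SE, adjusted p = 0.0446) and CELSR3 (-0.82 ± 0.19 SE, adjusted p = 0.0445). All their tested probe sets were negative, and with adjustment over probe sets 1 of the 2 for CELSR3 was called. CELSR2 was at 6.97, 7.46, 7.50 and 7.14 on large and 6.01, 6.07, 6.33 and 6.82 on small arrays 1 to 4, so small array 4 came closest to the large ones. Neither CELSR2 nor CELSR3 was called under those 3 settings. The counts of called genes depended on single arrays, as did the share called of all tested probe sets, 1.5% with all arrays. That share was 2.41%, 0.446%, 0.366% and 0.15% without large array 1, 2, 3 or 4. It was 0.272%, 0.311%, 1.23% and 1.32% without small array 1, 2, 3 or 4, and 0.943% with RNA quality as a covariate. For planar cell polarity 0 were called without large array 2, 3 or 4 or small array 1 or 2, 1 without small array 3, and 0 with RNA quality as a covariate. For co-receptors and partners 1 was called without large array 4 or small array 1 or 2. For the SFRP list 0 were called without large array 4 or small array 1, and for turnover 1 was called lower without large array 1.

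**Figure D4:**
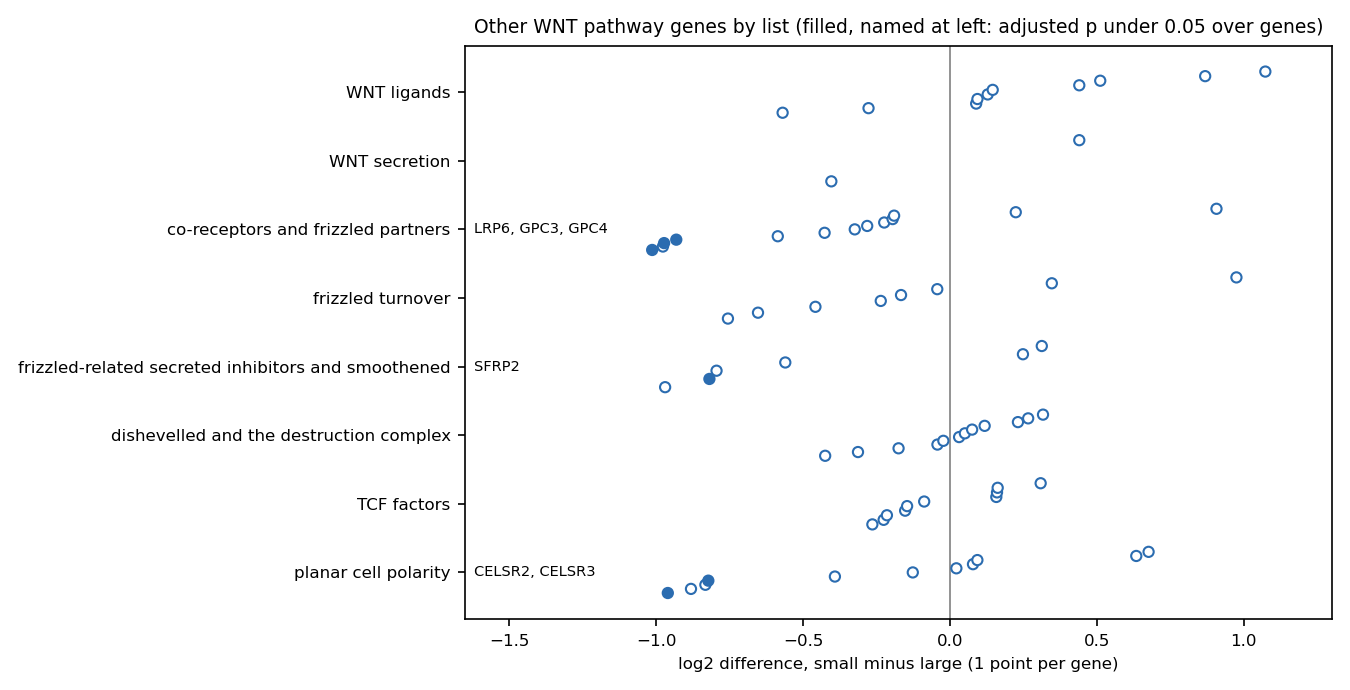
Log2 difference, small minus large, of each tested gene (1 point per gene) in the 8 lists of other WNT pathway genes. Filled points, named at the left, are the 6 genes called at an adjusted p under 0.05; all 6 lie between -1.01 and -0.82, in the lists of co-receptors, secreted relatives and planar cell polarity.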

How the data were processed

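Total RNA from 4 large and 4 small sorts of H1 cells was measured on 1-colour arrays. Per the series design text, data were taken with GeneChip software and then loaded into Rosetta Resolver 7.1. Deposited values are linear intensities, 1 for each probe set on each array, and the program, background correction and scaling that the authors used to write it are not given in the sources used here.

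Intensities were moved to log2 after adding 1.81 (the 10th percentile of all values), which understates changes of dim genes, and quantile normalized. Leaving aside 62 control probe sets, those with a mean over the 8 arrays above the 40th percentile were tested. Small and large arrays were compared by limma (3.58.1, under R 4.3.3) as a two-sided lmFit and eBayes test with a variance trend. Benjamini-Hochberg adjustment ran over 32768 probe sets, or over 14726 genes by brightest probe set for pathway lists, at 0.05. Errors are moderated standard errors; 4 arrays per group limit the precision. The procedure was tested on simulated data. GEO's platform annotation named 1 gene for 41097 probe sets, several for 1801 and no gene for 11777. Gene IDs allowed symbols to be updated for 41043. Probe sets ending in _s_at or _x_at can bind several transcripts.

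The members, lists and tests were chosen with earlier results of these data known. Named were all frizzled probe sets and, from each list, every called gene or, with none called, the 2 with the smallest p, with LRP5, LRP6, LEF1, TCF7L1, CTNNB1 and SFRP2 in any case. Alternatives covered scaling, pseudocount, filter, variance model, array weights, RNA quality, replicate numbers and left-out arrays; leaving out large array 1 and small array 3 together was added after seeing the data.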

Additional observations from a re-analysis of the deposited data

Results flagged for a closer look

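Among the 66 groups of 4 values examined for the frizzled and other named genes, 4 held an array far from the other 3 by Dixon's test at 95%; chance gives about 1 in 20 such groups. For FZD3 (227524_at) large array 1 was at 7.56, above the 6.95 to 7.01 of the other large arrays. For LGR4 large array 1 was at 8.39, below 9.04 to 9.13. For CTNNB1 large array 3 was at 9.14, above 8.34 to 8.39. For NOTUM small array 4 was at 3.45, below 4.69 to 4.95.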

How the results depend on the processing

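Of the 14 tested frizzled probe sets, 11 from 6 genes kept the sign of their difference in each of up to 21 alternatives. The others were small and never called. FZD1 was at -0.0071 with array weights and -0.027 without large array 1 and small array 3 (0.004 to 0.51 with 1 array left out). FZD10 was at 0.0097 with the RNA quality covariate, at -0.21 without the same 2 arrays and from -0.11 to 0.11 with 1 array left out. FZD2 (210220_at) was at 0.033 with array weights, at 0.09 without the same 2 arrays and from -0.45 to 0.10 with 1 left out. The number of frizzled probe sets called was 0 under 3 settings (the deposited scaling, median centring, no variance trend), 1 with 75th percentile scaling and 0 to 2 with 1 array left out. Under each of those 3 settings limma called 3 of 32768 probe sets (0.00916%). FZD7 (203706_s_at) was then at -1.24, -1.09 and -1.25 and FZD5 (221245_s_at) at -0.84, -0.70 and -0.83, with FZD5 at -0.70 with 75th percentile scaling and -0.74 with the covariate, all without a call. With 1 array left out they ran from -1.47 to -1.07 and from -0.92 to -0.67 (FZD5 at -0.999 without large array 1 and small array 3), and FZD7 203705_s_at from -0.996 to -0.66. FZD3 (227524_at) passed at -1.17 with the covariate. The median of all tested probe sets moved from 0.02 to -0.09 on the deposited scaling.

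Over all probe sets, 492 calls (429 lower, 63 higher) became 422 with 75th percentile scaling (318 lower, 104 higher), 1133 with array weights, 309 with the covariate, 1156 without large array 1 and small array 3, 257 for 1 probe set per gene and 49 to 790 with 1 array left out. The lists of co-receptors, secreted relatives and planar cell polarity had 0 calls under the same 3 settings. Planar cell polarity had 1 with 75th percentile scaling, 4 with array weights and 0 with the covariate. Secreted relatives had 2 and turnover 1 with array weights and without large array 1 and small array 3. With 1 array left out the counts were 1 to 4 for co-receptors, 0 to 1 for secreted relatives and turnover and 0 to 2 for planar cell polarity. The cause of these moves was not tested.

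Equally numbered small and large arrays deviated from their group means with correlations of 0.0965, 0.102, 0.206 and 0.018. Because not all exceeded 0.1, the numbers were not taken as pairs. Yet 6 of 8 arrays were closest to their own number, a hint from the data that numbers may be shared. The labels do not settle this, and the p-values given above take no account of such sharing. With a replicate block 4 frizzled probe sets and 1211 probe sets in all (3.7%) were called (885 lower, 326 higher). FZD7 203706_s_at was then at -1.25 ± 0.13 SE (limma adjusted p = 0.0019) and FZD5 221245_s_at at -0.83 ± 0.12 SE (adjusted p = 0.0052). FZD7 203705_s_at at -0.79 (adjusted p = 0.0098) and FZD3 227524_at at -1.004 (adjusted p = 0.0171) were also called. From the lists 4 co-receptors and partners, 3 planar cell polarity genes, 2 secreted relatives and 1 turnover gene were called.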
